A study of Mus musculus with 6 samples.

Results

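The genes described here are 10 markers of tissue macrophages, chosen by symbol: Csf1r, Adgre1, Cx3cr1, Aif1, C1qa, C1qb, Mrc1, Lyve1, Mpeg1 and Trem2. All 10 were found among the 30462 genes of the table, and all 10 passed the filter on low values, set at an FPKM of 1 or more in 3 or more libraries. FPKM is a fragment count divided by exon length and by library size. The RNA came from the cochlea, the hearing organ, of mice at postnatal day 7, in 3 libraries labelled Neu4 knockout (replicates 2, 4 and 5) and 3 labelled wild type (replicates 3, 4 and 5). The product of Neu4 is a sialidase, which cuts sialic acid off sugar chains. The labels give no allele, strain, sex, dissection or statement that each library is a separate animal, so p-values measure the spread between these libraries.

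Macrophages are resident phagocytes that clear dying cells and debris. Their survival depends on the receptor encoded by Csf1r, and in the postnatal cochlea they are known from the spiral ganglion, the spiral ligament, the stria vascularis and the basilar membrane. Bone-resorbing osteoclasts come from the same lineage and also express Csf1r, and lymphatic endothelium also expresses Lyve1 and Mrc1, so none of these symbols marks macrophages alone in whole tissue.

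The libraries held 15170973 (knockout 5) to 17192293 (wild type 4) fragments, as implied by the FPKM steps. Neu4 itself was at 4 to 8 fragments in every library (FPKM 0.0797 ± 0.0255 in knockout and 0.0779 ± 0.0242 in wild type, SD, n = 3), so the genotype labels could not be checked from its RNA, and every direction given is that of the labels. By Xist and Ddx3y, the male libraries were knockout 2 and wild types 3 and 4, and the rest were female. Genes of the cochlea were present, with an FPKM of 7.60 to 8.62 in knockout and 6.88 to 7.54 in wild type for Otof of hair cells, and of 99.7 to 116 and 93.9 to 96.2 for Tectb of the tectorial membrane. The 6 spiral ligament genes summed to 1225 to 1233 in knockout and 1019 to 1136 in wild type. The 6 stria vascularis genes summed to 153 to 169 and 142 to 146, so both sums were higher in knockout without overlap. The sums of the 8 hair cell genes (22.8 to 25.7 and 20.9 to 22.9) and of the 8 supporting cell genes (283 to 326 and 271 to 287) overlapped. Markers of other tissue were lower: the summed FPKM of the 7 middle ear epithelium genes was 10.95 to 101 in knockout and 392 to 743 in wild type, and that of the 7 mast cell genes 7.10 to 16.1 against 30.8 to 37.1.

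The macrophage genes had a similar summed level in both genotypes. Most of this sum is Csf1r, C1qa and C1qb, with means of 60.3, 50.3 and 34.0 FPKM over all libraries, so it says little on the other members. Their summed FPKM was 189, 185 and 184 (knockouts 2, 4, 5) and 180.5, 189 and 193 (wild types 3, 4, 5). They took 0.0637% to 0.0660% of fragments in knockout and 0.0625% to 0.0641% in wild type, ranges that overlap. Of the 10 genes, 4 were higher and 6 lower in knockout, with a median log2 difference of -0.05 beside 0.02 over the 14072 genes tested. With limma and Benjamini-Hochberg adjustment over all genes, 0 of the 10 passed 0.05, where 0.334% of all genes tested passed. At an unadjusted p under 0.05 there were 2 (20% of the members, and 17.6% of all genes tested). These 2, Mpeg1 and Mrc1, were also the only members with no overlap between the genotypes (20%, against 24.8% of all genes tested, of which 15.2% were higher and 9.54% lower in knockout). Both shares of members are near the background, so the set did not stand apart from other genes. For the other 8 the log2 differences lay between -0.12 and 0.07, and their 95% intervals, gene by gene, lay between 0.745 and 1.22 as ratios of FPKM + 1. On that scale the ratio of FPKM itself is understated, most for the lowest genes, Aif1 and Trem2. In bulk tissue, fewer cells of a type and less RNA per cell cannot be told apart.

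**Figure D1:**
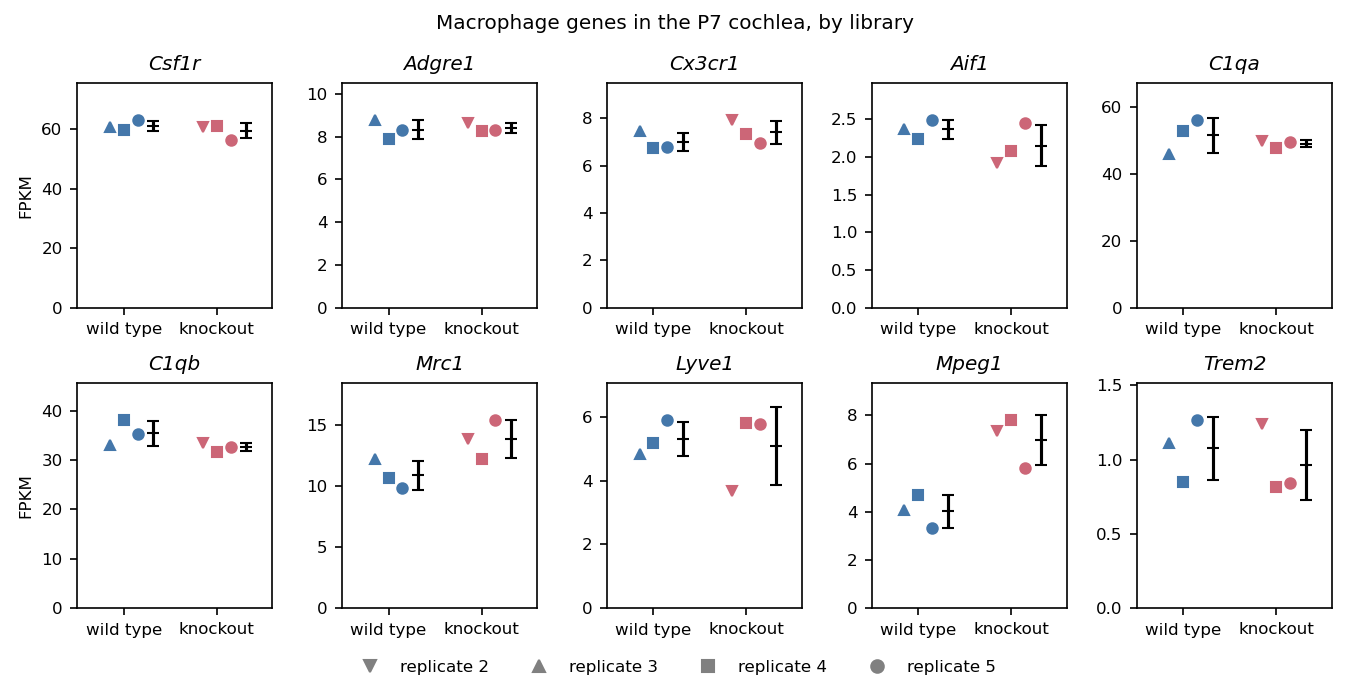
FPKM of each of the 10 macrophage genes (vertical axes from 0, scaled per gene) in the 3 wild type and 3 knockout libraries, with marker shapes for the replicate numbers; black bars are the mean and SD. Mpeg1 (5.83 to 7.80 in knockout, 3.32 to 4.68 in wild type) and Mrc1 (12.3 to 15.4 and 9.85 to 12.2) are the genes whose groups do not overlap.

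**Figure D2:**
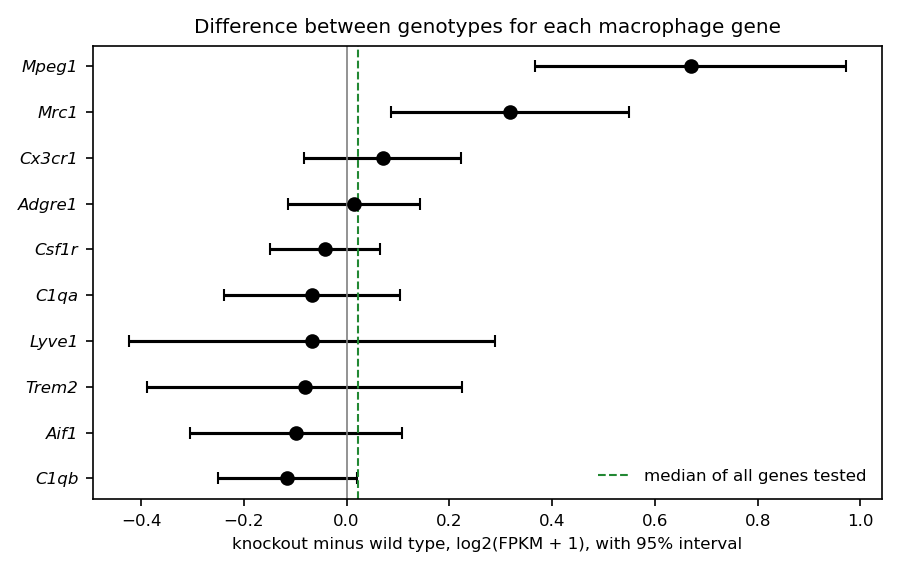
Difference between knockout and wild type for each macrophage gene (horizontal axis, log2(FPKM + 1); points are limma estimates, bars 95% intervals, n = 3 each); the dashed line is the median of all genes tested. The interval runs from 0.37 to 0.97 for Mpeg1 and from 0.09 to 0.55 for Mrc1, while those of the other 8 genes span 0.

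Csf1r, the receptor for the growth factors Csf1 and Il34, was the most abundant member. The gene (ENSMUSG00000024621, GRCm38 chromosome 18, 61100598 to 61132149, plus strand) had an FPKM of 60.8, 61.0 and 56.5 (knockouts 2, 4, 5) and 60.8, 59.7 and 63.1 (wild types 3, 4, 5). The groups overlapped, and knockout 5 was the lowest library. The log2 difference was -0.04 (SE 0.046, 95% interval -0.15 to 0.07, adjusted p = 0.668, limma), from 4950 to 5958 fragments per library. Csf1r shares exon sequence with Hmgxb3 on the other strand, whose FPKM reached at most 4.28; strand use in the counting: not given in the sources used here.

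Adgre1, which encodes the F4/80 antigen of mouse macrophages, had overlapping groups. It lies on chromosome 17 (57358691 to 57483527, plus strand) and had an FPKM of 8.66, 8.25 and 8.31 (knockouts 2, 4, 5) and 8.77, 7.87 and 8.31 (wild types 3, 4, 5). The highest and the lowest library were both wild type, and the log2 difference was 0.01 (SE 0.055, adjusted p = 0.915, limma). Its sign turned in 4 of 17 alternatives, such as scaling by median ratios (-0.01).

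Cx3cr1, the receptor for the chemokine fractalkine on macrophages and microglia, had an FPKM of 7.93, 7.32 and 6.96 (knockouts 2, 4, 5) and 7.45, 6.75 and 6.81 (wild types 3, 4, 5) (chromosome 9, 119901616 to 120069879, minus strand). The male knockout 2 was highest, the groups overlapped, and the log2 difference was 0.07 (SE 0.065, adjusted p = 0.607, limma). Among the 10 genes, Adgre1 and Cx3cr1 had the closest profiles over the 6 libraries: the root mean square distance between their centred and scaled log2 values was 0.617.

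Aif1, which encodes the actin-bundling protein Iba1 used to stain cochlear macrophages, was low. It had an FPKM of 1.92, 2.08 and 2.45 (knockouts 2, 4, 5) and 2.37, 2.24 and 2.49 (wild types 3, 4, 5) (chromosome 17, 35170991 to 35176068, minus strand). These values rest on 49 to 61 fragments per library, and the groups overlapped (log2 difference -0.10, SE 0.088, adjusted p = 0.594, limma).

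C1qa and C1qb encode chains of C1q, the molecule that starts the classical complement pathway, and macrophages are its main source. Their genes are neighbours on the minus strand of chromosome 4 (136895917 to 136898803 and 136880129 to 136886187). C1qa had an FPKM of 49.8, 47.8 and 49.6 (knockouts 2, 4, 5) and 45.9, 52.8 and 56.2 (wild types 3, 4, 5), so that wild type held both the lowest and the highest library (log2 difference -0.07, SE 0.073, adjusted p = 0.666, limma). C1qb had 33.4, 31.7 and 32.7 in knockout and 33.0, 38.1 and 35.3 in wild type, in the same order. Its groups overlapped only through wild type 3, and the log2 difference of -0.12 (SE 0.057, 95% interval -0.25 to 0.02) had an adjusted p of 0.346 (limma). The third chain, C1qc, which is not among the 10, had 26.0, 28.1 and 26.3 in knockout and 24.5, 24.2 and 29.0 in wild type (log2 difference 0.05, adjusted p = 0.752, limma). The ratio of C1qa to C1qb FPKM was 1.49 to 1.51 in knockout and 1.39 to 1.59 in wild type. The ratios to the third chain were wider: C1qa to C1qc was 1.70 to 1.92 in knockout and 1.88 to 2.18 in wild type, and C1qb to C1qc 1.13 to 1.29 against 1.22 to 1.57.

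Mrc1, the mannose receptor CD206 that takes up glycoproteins, was higher in every knockout library than in any wild type library without passing the test. The gene (ENSMUSG00000026712, chromosome 2, 14229392 to 14332057, plus strand) had an FPKM of 13.9, 12.3 and 15.4 (knockouts 2, 4, 5) and 12.2, 10.7 and 9.85 (wild types 3, 4, 5). Knockout 4 and wild type 3 were nearly level, at 12.25 and 12.20. The mean was 1.27 times that of wild type (log2 difference 0.32, SE 0.099, 95% interval 0.09 to 0.55, adjusted p = 0.178, limma). Lyve1, the hyaluronan receptor of perivascular macrophages and lymphatic vessels (chromosome 7, 110850607 to 110863239, minus strand), showed no such shift. It had 3.68, 5.81 and 5.78 (knockouts 2, 4, 5) and 4.83, 5.18 and 5.89 (wild types 3, 4, 5), with knockout 2 the lowest library. Its log2 difference was -0.07 (SE 0.152, adjusted p = 0.852, limma), and without knockout 2 it was 0.11.

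Mpeg1 showed the largest difference among the members. It encodes perforin-2, a pore-forming protein with which phagocytes attack engulfed bacteria (ENSMUSG00000046805, chromosome 19, 12460779 to 12465283, plus strand). Its FPKM was 7.34, 7.80 and 5.83 (knockouts 2, 4, 5) and 4.07, 4.68 and 3.32 (wild types 3, 4, 5). All knockout libraries lay above all wild type libraries. The same order within males (7.34 against 4.07 and 4.68) and within females (7.80 and 5.83 against 3.32) follows from this and is no separate result. The mean was 6.99 ± 1.03 against 4.02 ± 0.683 (SD, n = 3), or 1.74 times the wild type level. In fragments these were 530, 572 and 383 against 291, 349 and 230. The log2 difference was 0.67 (SE 0.129, 95% interval 0.37 to 0.97). It did not pass the test over all genes (unadjusted p = 0.00113, adjusted p = 0.0936, limma), and passed with voom on the recovered fragments (log2 difference 0.80, adjusted p = 0.0185), where 2.76% of all genes passed. Over 17 alternatives its adjusted p ran from 0.0185 to 0.244.

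Trem2, a lipid-sensing receptor that signals through the adaptor Tyrobp (chromosome 17, 48346401 to 48354147, plus strand), was the lowest member. It had an FPKM of 1.24, 0.812 and 0.840 (knockouts 2, 4, 5) and 1.11, 0.847 and 1.26 (wild types 3, 4, 5). Knockout 2 and wild types 3 and 5, the libraries at 1 or more, carried it past the filter, and the groups overlapped (log2 difference -0.08, SE 0.130, adjusted p = 0.781, limma).

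The order of levels, per length, was Csf1r, C1qa, C1qb, Mrc1, Adgre1, Cx3cr1, Mpeg1, Lyve1, Aif1 and Trem2, with means over all libraries from 60.3 to 1.02 FPKM. Within wild type no gene's values overlapped those of the next. Within knockout Cx3cr1 (7.40 ± 0.487) and Mpeg1 (6.99 ± 1.03) overlapped. In wild type Mpeg1 stood below Lyve1, at 4.02 ± 0.683 against 5.30 ± 0.540, and in knockout above it, at 6.99 ± 1.03 against 5.09 ± 1.22 (SD, n = 3). The low place of Trem2 depends on the gene length. The deposited FPKM divides by the union of all annotated exons, 4946 bp for Trem2, while its principal transcript has 1088 bp. Over that length the same fragments gave a mean of 4.63 FPKM in place of 1.02. Aif1 moved from 2.26 to 3.96 (1532 bp and 875 bp), and the last places were exchanged. This length was chosen after seeing the data, and it moves all libraries by the same factor.

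**Figure D3:**
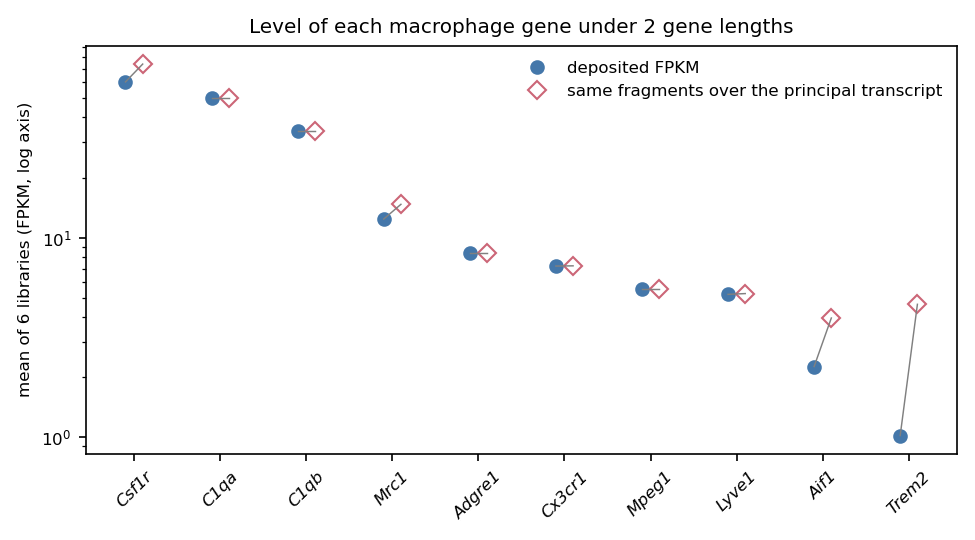
Mean level of each macrophage gene over the 6 libraries (vertical log axis, FPKM), as deposited (circles) and with the same fragments divided by the length of the principal transcript (diamonds). Trem2 moves from 1.02 to 4.63 and Aif1 from 2.26 to 3.96, while the 4 genes Adgre1, C1qa, C1qb and Mpeg1 do not move.

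Relative to Csf1r in the same library, Mpeg1 and Mrc1 did not overlap and the other 7 genes did. Csf1r itself varied only from 56.5 to 63.1 FPKM, so these ratios largely repeat the FPKM values and are no separate result. Such ratios were not taken for other genes, so this count has no share to be read against. The log2 ratio of Mpeg1 to Csf1r was -3.05, -2.97 and -3.28 (knockouts 2, 4, 5) and -3.90, -3.67 and -4.25 (wild types 3, 4, 5). For Mrc1 it was -2.13, -2.32 and -1.87 against -2.32, -2.48 and -2.68, with knockout 4 and wild type 3 level to 2 decimals. For Adgre1, by contrast, the mean log2 ratio was -2.82 ± 0.060 against -2.88 ± 0.076 (SD, n = 3).

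In their profiles over the libraries, Mpeg1 was at a root mean square distance of 1.09 and Mrc1 at 1.06 from the mean of the other members, as far as Lyve1 (1.09) and C1qb (1.06). For Mpeg1 the nearest of all 14062 other tested genes were Cybb (0.106) and Dock2 (0.124), followed by Pura, Relch, Mmp25 and Adamts5. Cybb, the catalytic subunit of the phagocyte NADPH oxidase, had an FPKM of 3.06, 3.55 and 2.42 (knockouts 2, 4, 5) and 1.79, 2.04 and 1.40 (wild types 3, 4, 5) (log2 difference 0.54, adjusted p = 0.131, limma). Dock2, an activator of Rac in blood cells, had 1.41, 1.49 and 1.30 against 1.04, 1.06 and 0.871 (log2 difference 0.27, adjusted p = 0.208, limma). In these 3 genes the libraries within each genotype had the same order, replicate 4 the highest and replicate 5 the lowest. This shared order follows from choosing Cybb and Dock2 by their profile and is no separate result. For Mrc1 the nearest were Cilk1 (0.0555) and the RNA helicase gene Ddx6 (0.0575). Looking at these 2 members alone was decided after their values were seen. The 6 genes nearest to the mean profile of all 10 were Adssl1, Ints9, Gm11964, Ddrgk1, Pdk3 and Parp2, at distances of 0.737 to 0.743, where the median gene was at 0.933. The members themselves were at 0.834 (Trem2) to 1.09 from the mean of the others. The mean profile of the 10 was nearly flat, from -0.24 (wild type 4) to 0.26 (wild type 5) on the scaled values. These distances therefore do not show a profile that the members share.

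Neutrophil genes, which are genes of another phagocyte, had an order of libraries much like that of Mpeg1. The summed FPKM of the 10 neutrophil genes was 161, 161 and 93.3 (knockouts 2, 4, 5) and 58.5, 97.0 and 35.9 (wild types 3, 4, 5). Replicate 5 was lowest within each genotype, as for Mpeg1, knockouts 2 and 4 were level, and the groups overlapped through wild type 4. The overlap came from Ltf, a gene also in the middle ear list, at 10.4, 12.2 and 7.57 against 13.4, 23.1 and 4.08. Without Ltf, a sum chosen after seeing the data, the other 9 gave 85.8 to 150.2 in knockout and 31.8 to 73.9 in wild type, with no overlap. Of the 7 tested, Ltf was lower in its mean and 6 were higher without overlap, where 15.2% of all genes tested were. By limma 0 were called, with 6 at an unadjusted p under 0.05 (17.6% of all genes), and voom called 3 (2.76% of all genes). The median log2 difference was 1.03. The most abundant was S100a9, at 64.5, 53.9 and 35.1 against 18.1, 28.2 and 11.5. Ngp, a gene of secondary granules, had 33.4, 36.2 and 23.5 against 10.9, 19.8 and 8.91 (log2 difference 1.23, adjusted p = 0.120, limma). None of the 10 neutrophil genes was at 0 in all libraries. Of the 8 monocyte genes, 7 had a higher mean in knockout, and 2 passed the filter. Plac8 had 5.16, 4.94 and 3.89 against 2.89, 3.32 and 1.69, while Vcan, also a gene of connective tissue, had 4.92, 4.63 and 9.45 against 10.9, 13.5 and 13.4. Of the 6 under the filter, 3 did not overlap: Ly6c2 (0.577 to 1.01 against 0.206 to 0.425), Ccr2 (0.449 to 0.94999 against 0.278 to 0.439) and F10 (0.290 to 0.352 against 0.133 to 0.234), all higher in knockout. The shares over all genes cover only genes past the filter, so this count has no share to be read against. Ly6c2 rested on 9 to 47 fragments per library and F10 on 6 to 16. The part of neutrophils or monocytes in the Mpeg1 difference was not tested.

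**Figure D4:**
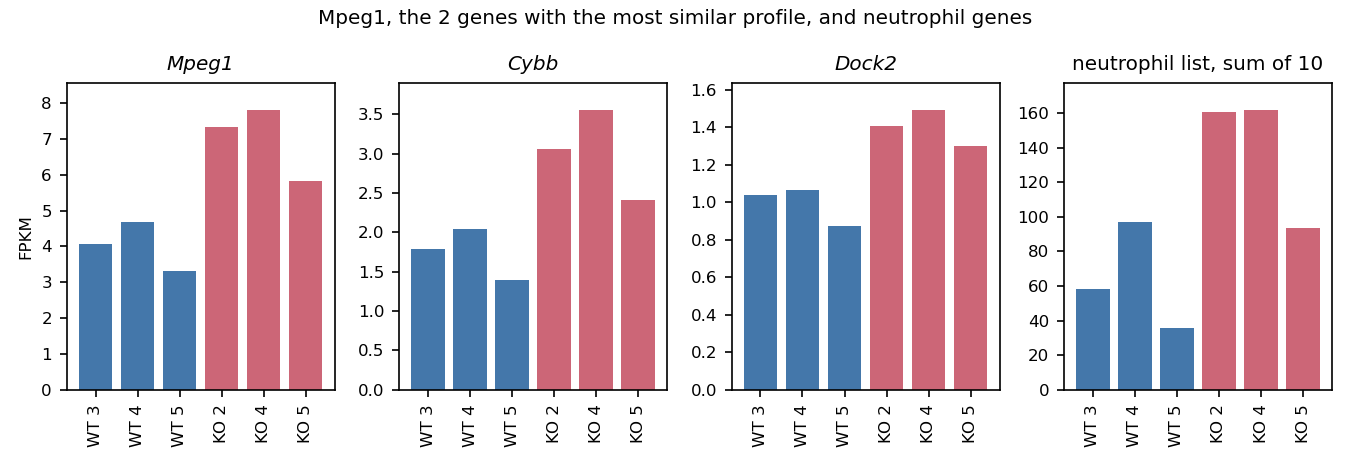
FPKM (vertical axes from 0) of Mpeg1, of Cybb and Dock2, the genes with the most similar profile, and of the sum of 10 neutrophil genes, in each library (WT, wild type, blue; KO, knockout, red; numbers are replicates). Replicate 5 is the lowest of each genotype in all panels, which for Cybb and Dock2 follows from their choice by profile. Only the neutrophil sum overlaps between the genotypes (93.3 in knockout 5, 97.0 in wild type 4), which it does through Ltf alone (7.57 and 23.1).

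The promoters of Mpeg1 and Mrc1, the members whose groups did not overlap, are shown with that of C1qb, whose groups did. PU.1 (gene Spi1) is the ETS-family factor that directs macrophage development, and capitals mark its family's core letters GGAA, or TTCC where the core is on the other strand. Each window holds 250 bases before and 50 after the RefSeq start (GRCm38.p6), on the gene's strand: Mpeg1 at chr19:12460520-12460819 (plus), Mrc1 at chr2:14229164-14229463 (plus) and C1qb at chr4:136886151-136886450 (minus).
Mpeg1: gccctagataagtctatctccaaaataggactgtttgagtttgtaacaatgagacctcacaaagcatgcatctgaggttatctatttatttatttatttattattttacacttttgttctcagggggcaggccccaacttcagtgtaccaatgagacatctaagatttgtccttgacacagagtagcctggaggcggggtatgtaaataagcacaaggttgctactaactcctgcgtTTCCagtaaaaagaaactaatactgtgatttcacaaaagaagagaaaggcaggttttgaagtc
Mrc1: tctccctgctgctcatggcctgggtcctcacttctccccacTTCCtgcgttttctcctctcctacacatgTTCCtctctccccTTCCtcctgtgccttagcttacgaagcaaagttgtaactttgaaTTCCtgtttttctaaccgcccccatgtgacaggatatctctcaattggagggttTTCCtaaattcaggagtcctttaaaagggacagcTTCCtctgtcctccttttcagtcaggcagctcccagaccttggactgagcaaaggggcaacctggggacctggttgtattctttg
C1qb: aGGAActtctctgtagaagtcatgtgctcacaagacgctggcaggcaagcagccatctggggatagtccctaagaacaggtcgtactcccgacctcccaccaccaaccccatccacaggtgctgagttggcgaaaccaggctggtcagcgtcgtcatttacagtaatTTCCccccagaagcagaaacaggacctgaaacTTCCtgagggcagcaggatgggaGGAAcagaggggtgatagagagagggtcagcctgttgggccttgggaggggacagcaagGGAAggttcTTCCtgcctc

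The Mpeg1 window holds the core 1 time, that of Mrc1 6 times and that of C1qb 6 times, and 96% of 32851 promoters of this length hold it at least once on either strand. RefSeq promoters were matched for 6 members: Mpeg1, Mrc1, C1qb, Cx3cr1, Aif1 and Trem2. The longer PU.1 motif GAGGAAGT, which contains the core, was in 0 of the 6 on either strand and in 3.2% of all promoters. TATAAA was in 0 of the 6 and in 13.6% of all promoters. The motifs describe the letters of these windows only.

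Beyond the members, 94 genes of 11 lists cover macrophage signalling, receptors, transcription factors and macrophage subtypes, and 75 of them were tested. Of the 75, 48 were higher and 27 lower in knockout (median log2 difference 0.05, beside 0.02 over all genes). Over all 14072 genes tested, 8006 were higher and 6066 lower. By limma 0 passed over all genes, with 19 at an unadjusted p under 0.05 (25.3%, against 17.6% of all genes tested), and voom called 5: Cybb, Dock2, Cbr2, F13a1 and Adam10. The groups did not overlap for 13 genes that were higher and 8 that were lower (28%, against 24.8% of all genes tested).

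The ligands of Csf1r overlapped between the genotypes. Csf1, the main ligand of the receptor, had an FPKM of 30.0, 29.7 and 28.8 in knockout and 28.5, 29.4 and 30.4 in wild type, and Il34, its other ligand, 3.12, 3.29 and 2.79 against 2.94, 3.77 and 2.55. Of the 10 genes tested 8 were higher (median log2 difference 0.04), the widest difference being that of the neutrophil receptor gene Csf3r (1.92 to 3.01 against 1.53 to 2.03; log2 difference 0.34, adjusted p = 0.273, limma). The adaptor gene Grb2 was at 37.3 to 41.4 in knockout and 39.6 to 42.1 in wild type, and Csf2rb, a receptor chain shared by myeloid cytokines, did not overlap (4.21, 3.78 and 3.56 against 3.21, 3.43 and 3.28; log2 difference 0.17, adjusted p = 0.281, limma). In the fractalkine list, the ligand gene Cx3cl1 had 7.85, 7.19 and 7.50 against 6.43, 6.85 and 8.41 and overlapped. The proteases that can release fractalkine were above wild type in every knockout library: Adam10 at 33.6, 31.5 and 34.9 against 28.6, 26.2 and 22.4 (log2 difference 0.37, adjusted p = 0.128, limma, and 0.0354 with voom) and Adam17 by a log2 difference of 0.11 (adjusted p = 0.331, limma).

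Partners of Trem2 mostly overlapped between the genotypes. Tyrobp, the adaptor of Trem2, had 47.9, 47.6 and 42.7 against 42.5, 45.6 and 44.6, and Apoe, a lipid carrier that Trem2 binds, 361, 366 and 384 against 363, 349 and 351. Plcg2, a phospholipase below Trem2, did not overlap (8.98, 8.33 and 7.45 against 7.23, 7.16 and 6.01; log2 difference 0.25, adjusted p = 0.219, limma). In the classical complement list 2 of 8 genes were higher and 6 lower, with a median log2 difference of -0.04, and C1ra, a protease of the C1 complex, did not overlap (4.54 to 4.93 against 5.01 to 5.32; adjusted p = 0.439, limma). The 6 complement receptor genes tested were all above wild type in their mean (median log2 difference 0.19), of which Itgb2, the shared integrin chain of leukocytes, was the most abundant (16.5, 15.4 and 12.6 against 13.1, 13.4 and 12.03) and Cr1l did not overlap (log2 difference 0.13, adjusted p = 0.317, limma).

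Receptors for uptake went both ways. Cd68, a lysosomal glycoprotein of phagocytes, had 130, 118 and 119 against 123, 122 and 131. Mertk, a receptor for dying cells, had 12.5, 12.8 and 14.1 against 11.1, 11.2 and 10.5 (log2 difference 0.24, adjusted p = 0.128, limma), while its relative Axl had 17.8, 19.3 and 22.2 against 22.6, 24.4 and 23.8 (log2 difference -0.25, adjusted p = 0.182, limma). Neither gene overlapped between the groups, and neither passed the test. Of the 9 tested genes for uptake of dying cells, 2 were higher and 3 lower without overlap (15.2% and 9.54% of all genes tested). By limma 0 of the 9 were called (0.334% of all genes tested), with 6 at an unadjusted p under 0.05 (17.6%), and voom called 1 (2.76%). Gas6, the shared ligand of both, was at 50.3 to 55.02 against 51.1 to 56.4, and the integrin gene Itgb5 was lower in every knockout library (53.6, 55.2 and 54.6 against 61.2, 58.8 and 59.2; adjusted p = 0.163, limma). Among transcription factors, Spi1, which directs macrophage development, overlapped (27.1, 25.6 and 21.1 against 22.6, 26.1 and 27.8). Maf (log2 difference 0.14, adjusted p = 0.234, limma) and Ikzf1, a factor of blood cells in general (0.27, adjusted p = 0.320, limma), did not overlap.

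Markers of tissue-resident macrophages went in both directions. Of the 7 tested, 2 were higher and 5 lower in knockout, and 5 did not overlap between groups (24.8% of all genes tested did not). By limma 0 were called (0.334% of all genes tested), with 5 at an unadjusted p under 0.05 (17.6%), and voom called 2 (2.76%). F13a1, the A subunit of coagulation factor XIII made by resident macrophages, had 17.8, 17.6 and 18.6 against 14.6, 14.6 and 13.02 (log2 difference 0.34, SE 0.056, adjusted p = 0.0735, limma, and 0.0147 with voom). Cd209f, a lectin, had 4.44, 3.18 and 3.05 against 2.32, 2.34 and 2.99 (log2 difference 0.35, adjusted p = 0.241, limma). In the other direction, Cbr2, a carbonyl reductase also known from airway epithelium, had 12.2, 10.9 and 18.1 against 26.2, 33.9 and 27.7 (log2 difference -1.06, SE 0.180, adjusted p = 0.0738, limma, and 0.00965 with voom). Stab1, a scavenger receptor also found on sinusoidal and lymphatic endothelium, had 30.5, 30.6 and 28.8 against 32.2, 32.5 and 35.0 (log2 difference -0.14, adjusted p = 0.199, limma), and the lectin gene Clec10a differed by -0.24 (adjusted p = 0.188, limma). Pf4 (22.4, 19.0 and 25.4 against 19.6, 23.4 and 25.9) and Cd163 overlapped. F13a1 was thus higher together with Mrc1, whereas Stab1 and Clec10a, which belong to the same list, were lower. Blood endothelium genes summed to 123 to 132 in knockout and 136 to 147 in wild type, with 5 of 8 lower without overlap (9.54% of all genes tested) and Kdr, a receptor for VEGF, higher without overlap (11.5 to 12.01 against 10.1 to 10.8). The middle ear sum given above was lower as well. The part of either in the values of Cbr2 and Stab1 was not tested.

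Of the 15 other pan-macrophage genes tested 12 were higher (median log2 difference 0.06), and besides Cybb and Mertk the lysosomal protease gene Lgmn was higher in every knockout library (127, 130 and 126 against 113, 115 and 122; log2 difference 0.12, adjusted p = 0.212, limma). The Fc receptor gene Fcgr3 was lower (7.26, 7.08 and 6.80 against 8.69, 8.61 and 8.94; log2 difference -0.28, SE 0.049, adjusted p = 0.0792, limma). Lyz2, the lysozyme gene of myeloid cells, overlapped (79.7, 76.6 and 65.1 against 70.9, 69.3 and 62.4). Of the 6 microglia genes tested, 3 were higher and 3 lower and none stood apart. The most abundant of them, Tmem119 (97.2 to 118 against 96.8 to 107) and Olfml3, are also expressed by bone-forming cells and mesenchyme, while the microglial gene P2ry12 was at 1.502 to 2.38 against 1.62 to 2.51.

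**Figure D5:**
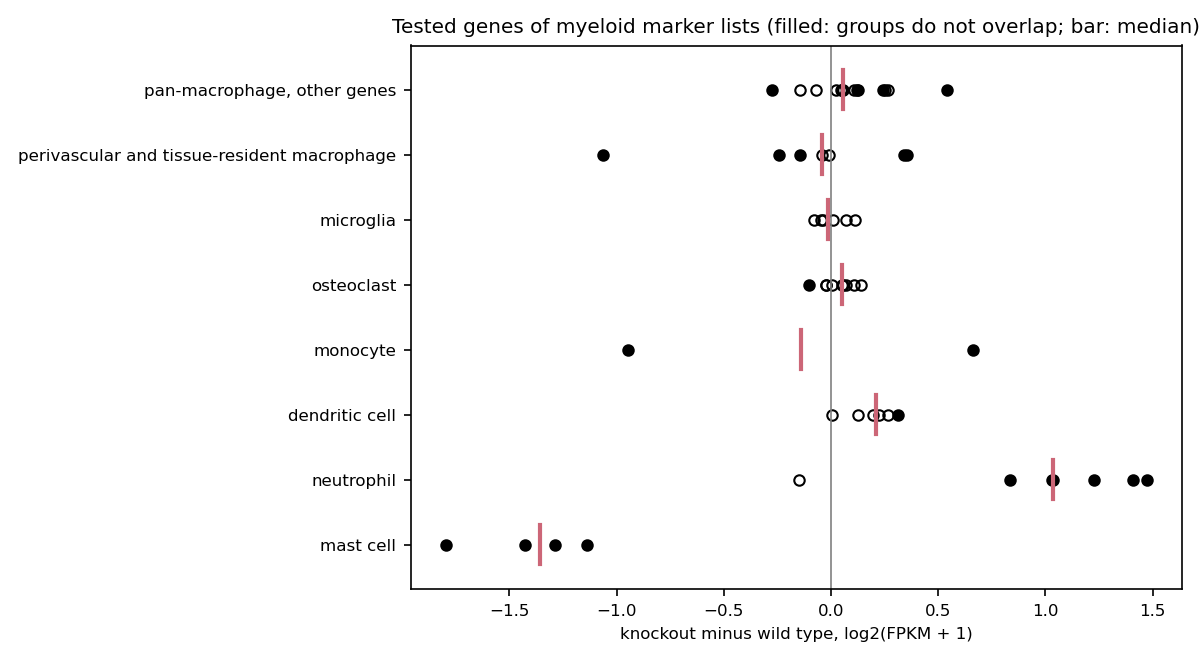
Difference between knockout and wild type (horizontal axis, log2(FPKM + 1)) of each tested gene of 8 myeloid lists; filled points are genes whose groups do not overlap, and red bars list medians. The macrophage, microglia and osteoclast lists have medians of -0.04 to 0.06, while the neutrophil median is 1.03 and the mast cell median -1.36. In the perivascular and tissue-resident list the median lies between genes of opposite sign, from -1.06 (Cbr2) to 0.35 (Cd209f), and 5 of its 7 genes do not overlap.

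The 3 most abundant osteoclast genes, Ctsk, Mmp9 and Acp5, were each above every macrophage gene, and the list overlapped in sum between the genotypes. Ctsk, the collagen-degrading protease of osteoclasts, had an FPKM of 1570, 1482 and 1440 in knockout and 1446, 1368 and 1510 in wild type. Mmp9, another matrix protease, was at 1054 to 1240 against 1077 to 1157, and the 10 osteoclast genes summed to 2947 to 3350 against 2945 to 3069. Without those 3 the other 7 summed to 107 to 122 against 106 to 121, below the macrophage genes. Of the 9 tested, 6 were higher and 3 lower. By limma 0 were called (0.334% of all genes tested), with 0 at an unadjusted p under 0.05 (17.6%), and voom called 0 (2.76%). Nfatc1, the master regulator of osteoclasts, did not overlap (20.7 to 22.95 against 23.1 to 23.8, adjusted p = 0.313, limma). How much of the Csf1r RNA came from osteoclasts and their precursors was not tested. Of the 4 lymphatic endothelium genes tested, whose cells share Lyve1 and Mrc1, 3 were lower in knockout and 1 higher, with a median log2 difference of -0.43. Without wild type 3 this median was -0.20. Pdpn, a gene of this list, had 2.61, 2.21 and 3.74 against 9.63, 5.19 and 1.48 and overlapped (adjusted p = 0.601, limma). The defining factor Prox1 was at 0.608 to 0.911 in knockout and 0.721 to 0.768 in wild type and did not pass the filter. Flt4, the receptor of lymphatic growth factors, was at 3.86 to 4.62 against 3.58 to 4.14. Ccl21a, a chemokine of lymphatic vessels, was at 0.407 to 1.44 against 1.27 to 2.09, and Tbx1, also a gene of the developing ear, at 14.8 to 18.3 against 20.4 to 21.2 without overlap (adjusted p = 0.117, limma, and 0.0330 with voom). The dendritic cell list had 6 of 6 tested genes above wild type in their mean (median log2 difference 0.21), where 8006 of all 14072 were higher. By limma 0 were called (0.334% of all genes tested), with 1 at an unadjusted p under 0.05 (17.6%), and voom called 0 (2.76%). Cd74, the class II invariant chain, was at 6.32 to 8.45 against 5.74 to 7.10. H2-Eb1, a class II antigen-presenting gene, was higher in every knockout library (3.89, 3.68 and 4.34 against 2.55, 3.17 and 3.31; adjusted p = 0.175, limma).

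Of 12 genes of cytokines and mediators of inflammation, 4 passed the filter. By limma 0 were called (0.334% of all genes tested), with 1 at an unadjusted p under 0.05 (17.6%), and voom called 0 (2.76%). Tgfb1 had 43.2, 38.5 and 31.9 against 38.7, 40.9 and 38.6. Il18, a cytokine of the inflammasome pathway, was higher in every knockout library (10.2, 9.63 and 10.7 against 8.52, 8.41 and 8.50; log2 difference 0.24, adjusted p = 0.116, limma). Il1b, Tnf and Il6 stayed below an FPKM of 1 in every library, the highest value being 0.558 for Il1b.

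In the 500000 bases on either side of Mpeg1, 4 other genes were tested, with log2 differences from -0.00 to 0.16. Of these, 0 were called (0.334% of all genes tested) and 1 was higher without overlap (15.2% of all genes tested). Around Mrc1, 2 were tested and 0 were called. With so few genes and so small a share over all genes, these counts cannot show whether the flanks were unchanged. C1qa and C1qb, the members that are neighbours, were each the member nearest to the other in profile (root mean square distance 0.706), and their log2 differences were -0.07 and -0.12.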

How the data were processed

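RNA of 6 cochlea libraries was measured. The authors deposited 1 table of FPKM values with 1 column per library, per the file headers, and the genome build is GRCm38, per the submitters' processing notes. No aligner, counter or strand setting is named (not given in the sources used here). Positions equalled GENCODE M21 for 30109 of 30462 genes. Multiplied by exon length, the values were whole multiples of 1 unit in each library (tolerance 0.01 fragment and 1e-06 of the value) for 98.1% to 98.2% of values above 0, which gave the fragments and depths; 0 library pairs were identical.

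The 14072 genes reaching FPKM 1 in 3 or more libraries entered a two-sided limma 3.58.1 test (R 4.3.3; lmFit and trended eBayes) of log2(FPKM + 1), adjusted by Benjamini-Hochberg and called under 0.05. Fold changes on this scale understate those of low genes. Tested on simulated data, the fit gave the true changes it called the right direction but more false calls than the threshold allows. Calls over all genes may be liberal too, which was not tested on these libraries. No set test was run. Alternatives were other pseudocounts, filters, scalings, eBayes settings, library weights, sex, a replicate block, voom on recovered fragments and leaving out each library. Members and lists were chosen with earlier results of these data known. For each list the rule names the called genes or else the 2 most abundant tested ones, and, in lists close to macrophages, up to 2 whose groups did not overlap. Lists of other tissues are given only beside a result. Any further gene was chosen after its values were seen. Tables and plots used matplotlib 3.10.9, pandas 2.3.3 and numpy 2.4.6 under Python 3.11.15. One gene that the rule names is not reported here.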

Additional observations from a re-analysis of the deposited data

How the results depend on the processing

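The count of members that passed was 0 in all alternatives except voom on recovered fragments, where it was 1 (Mpeg1). Mpeg1 kept its direction in 17 of 17 alternatives (log2 difference 0.57 to 0.80) and Mrc1 likewise (0.24 to 0.40). Their groups do not overlap, so a changed pseudocount, filter or eBayes setting, or a library left out, could not turn the sign. Most of the 17 outcomes were therefore fixed in advance. Small differences changed sign. Adgre1 was at -0.0082 with median-ratio scaling, -0.0040 with quantile normalization, and between -0.0208 and 0.0493 with a library left out (-0.0051 without knockout 2, -0.0208 without wild type 4). Lyve1 was at 0.0579 with the replicate block and between -0.159 and 0.112 with a library left out (0.112 without knockout 2). Trem2 failed the filter in some settings and has 13 values. The median of the members, -0.05, was -0.0140 with genes of FPKM 5 or more, -0.00699 with the replicate block, and -0.0542 to -0.00108 with a library left out. Over all genes, 47 were called, against 15 with a pseudocount of 0.01, 19 without a filter, 103 with FPKM of at least 5, 19 without the trend, 104 with library weights, 24 with sex as a covariate, 22 with the replicate block, 381 with voom and 10 to 98 with a library left out. The cause of these changes was not tested.

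Replicate numbers 4 and 5 occur in both genotypes, and the labels do not say that they pair the libraries. The deviations of same-numbered libraries from their group means correlated across genes at 0.14 (number 4) and 0.15 (number 5), over genes that are not independent, and those of differently numbered libraries at -0.13 to 0.11. With the number as a block 0 members passed. Of 196 list medians recomputed with a library left out or with median-ratio scaling, 184 moved by less than the spread between libraries. Depth limits Aif1 (49 to 61 fragments per library) and Trem2 (63 to 102).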
